A study of Mus musculus with 12 samples.

Results

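*Sox2*, *Sox3* and *Sox21* (SoxB), *Sox4*, *Sox11* and *Sox12* (SoxC), and *Sox8* and *Sox9* (SoxE) were followed in single cells of the developing mouse cochlea. The 8 genes were chosen by family membership, whatever their level, from 24489 genes in the count table, of which 19 are Sox genes. Single RFP+ cells were sorted by fluorescence from pooled cochleae into 384-well plates, and Smart-seq2, which reads whole polyA transcripts of single cells, was run on 12 plates: 2 plates each at E14.5 and E15.5, 3 at E16.5, 1 at E17.5, and again 2 each at E18.5 and P3 (E, embryonic day; P, postnatal day). Every plate is labelled PVcre;Ai14, with the exception of the second E14.5 plate, which is labelled TrkCcre. PVcre drives Cre recombinase from the parvalbumin locus and TrkCcre from *Ntrk3*, the gene of a neurotrophin receptor. Ai14 is a tdTomato reporter that Cre switches on, and the cells at hand are those that passed the red fluorescence gate. The study regards its otic mesenchyme cluster as a likely contaminant of the sorting, and driver activity was not tested here in any class. The study's methods give the *Ntrk3* driver for E14.5 as a whole, against the label of the first E14.5 plate, and only the stage was used here. At E14.5 and E15.5 the modiolus region, the core of the cochlea, was cut out, and at later stages the spiral ganglion. The plate is the replicate throughout. Each plate pooled cochleae of several animals, and where plates of a stage shared animals the p-values measure only the spread between plates.

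SOX proteins bind DNA through an HMG box and usually act with a partner factor such as a POU or PAX protein. SOX2 keeps progenitors and glia of the ear and nervous system undifferentiated and is required for the prosensory domain that gives rise to hair cells and supporting cells, whereas SOX21 tends to counter its SoxB relatives. SOX4 and SOX11 come on as neurons are born and turn on neuronal genes, with SOX12 as a weaker relative, and SOX9 shapes the otic vesicle, cartilage and glia, with SOX8 often beside it. The spiral ganglion holds the neurons (SGNs) that join hair cells (HCs) to the brainstem, the glia that wrap them and the otic mesenchyme (OM) around them, and type I SGNs (Ia, Ib and Ic) contact inner HCs while type II SGNs contact outer HCs.

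The members share the HMG box, and its first stretch is printed to show how nearly alike the 3 groups are there, since reads of one gene could then resemble another. Below are 27 coding bases from GENCODE M21 on GRCm38 (mm10), 5′ to 3′ on the coding strand, with each base that is unlike *Sox2* in capitals. They lie at chr3:34650548-34650574 (plus strand) for *Sox2*, chrX:60892969-60892995 (minus) for *Sox3*, chr14:118235582-118235608 (minus) for *Sox21*, chr13:28952815-28952841 (minus) for *Sox4*, chr12:27342232-27342258 (minus) for *Sox11*, chr2:152397549-152397575 (minus) for *Sox12*, chr17:25570196-25570222 (minus) for *Sox8* and chr11:112782903-112782929 (plus) for *Sox9*.
Sox2: aggcccatgaacgccttcatggtatgg
Sox3: CgAcccatgaacgcGttcatggtGtgg
Sox21: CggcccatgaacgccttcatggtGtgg
Sox4: CggcccatgaacgccttTatggtGtgg
Sox11: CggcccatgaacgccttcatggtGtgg
Sox12: CggccGatgaacgcGttcatggtGtgg
Sox8: CggcccatgaaTgccttcatggtGtgg
Sox9: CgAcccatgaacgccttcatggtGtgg
The stretch was identical in *Sox21* and *Sox11*, a SoxB and a SoxC gene, and each of the other genes differed from *Sox2* at 2 to 4 of the 27 bases. Over the whole exonic sequence the longest run shared by 2 members was 48 bases, between *Sox4* and *Sox11*, followed by 38 bases between *Sox2* and *Sox21*, and the lowest of the 28 pairs was 12 bases. Reads had been kept only where they mapped to a single place.

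Of the 8 genes 6 have 1 exon, and *Sox8* and *Sox9* have 3 exons each. Their exonic lengths ran from 2057 bases for *Sox2* and 2065 for *Sox3* to 8311 for *Sox11*, with 3118 for *Sox8*, 3799 for *Sox21*, 4135 for *Sox9*, 4453 for *Sox12* and 4795 for *Sox4*, and levels were compared between genes only after division by these lengths. *Sox2* lies inside *Sox2ot* on the same strand, and *Gm4675*, *Gm26735* and *2810468N07Rik* overlap *Sox21*, *Sox4* and *Sox8* on the other strand. The strand setting of the counting is not given in the sources used here, so reads of these overlapping pairs cannot be told apart.

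*Sox4* and *Sox11* both fell in neurons between E18.5 and P3, so the SoxC promoters are shown. Each is the RefSeq window of 250 bases before the start on GRCm38.p6, on the gene's own strand, all 3 on the minus strand, at chr12:27342719-27342968 for *Sox11*, chr13:28953700-28953949 for *Sox4* and chr2:152398047-152398296 for *Sox12*. Capitals mark matches on either strand to the GC box GGGCGG, the CCAAT box, the TATA box TATAAA, or either of the letters known as SOX cores, which are ACAAAG in one form and, in the other form, ACAATG.
Sox11: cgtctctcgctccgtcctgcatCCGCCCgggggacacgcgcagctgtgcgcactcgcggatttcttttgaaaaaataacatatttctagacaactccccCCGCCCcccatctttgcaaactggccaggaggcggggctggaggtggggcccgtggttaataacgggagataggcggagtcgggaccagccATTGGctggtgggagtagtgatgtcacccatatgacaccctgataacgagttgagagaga
Sox4: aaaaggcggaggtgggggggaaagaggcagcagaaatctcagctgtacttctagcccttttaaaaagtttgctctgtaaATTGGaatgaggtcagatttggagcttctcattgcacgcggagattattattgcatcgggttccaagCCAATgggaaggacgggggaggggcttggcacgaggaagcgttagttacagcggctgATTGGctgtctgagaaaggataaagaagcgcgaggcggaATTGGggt
Sox12: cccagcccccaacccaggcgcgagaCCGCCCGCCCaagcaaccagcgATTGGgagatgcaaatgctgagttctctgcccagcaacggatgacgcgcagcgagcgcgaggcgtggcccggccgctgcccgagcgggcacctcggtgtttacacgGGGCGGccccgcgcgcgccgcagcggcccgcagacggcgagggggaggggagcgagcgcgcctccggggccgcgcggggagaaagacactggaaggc
All 3 held CCAAT, with 4 matches in *Sox4* and 1 each in *Sox11* and *Sox12*. GC boxes numbered 2 in *Sox11* and 3 in *Sox12*, 2 of which overlap. Of 32851 mouse promoter windows of this length, 33.8% held CCAAT, 32.7% GGGCGG, 12.4% TATAAA, 16.46% ACAAAG and 10.7% ACAATG. GC content was 50.8% for *Sox4*, 58.0% for *Sox11* and 74.4% for *Sox12*, against a median of 52.4%. Of the 6 members with a window in the table, *Sox2* alone held a SOX core, 1 match to ACAAAG.

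After the study's own filter (more than 1000 genes and under 5% spike-in reads), 4226 of 4608 wells were kept, 125 to 382 a plate, with 80997594 to 303906928 counts a plate. Cells were clustered with every Sox gene and the glial code genes left out and named from marker genes, which gave 2271 SGN-like, 1072 glia-like, 568 OM-like, 86 HC-like, 25 epithelium-like and 6 blood-like cells and left 198 unnamed. Class values below are sums of at least 5 cells a plate (3 for HC-like cells). The classes were named from these markers, so the level of each list in its own class is a description. The neuron marker list summed to 13782 to 20716 CPM (read counts scaled to a common total) in SGN-like cells and the glial list to 4917 to 10280 in glia-like cells. The OM list summed to 4671 to 20889 in OM-like cells and the HC list to 3732 to 10579 in HC-like cells. Plates fell into 2 kinds by depth, with a median of 4691 to 4983 genes a cell on the 6 plates of E14.5, E15.5, E17.5 and the third of E16.5, and 8426 to 9629.5 on the others. Glial reads were most common in neurons of E18.5 and P3. The 9 glial markers (*Erbb3*, *Cdh19*, *Foxd3* and others, no Sox gene) made up a median of 0.000567% to 0.00591% of an SGN-like cell's counts at E14.5 to E17.5. The medians were 0.222% and 0.242% on the E18.5 plates and 0.449% and 0.578% on the P3 plates. Neuron values are therefore also given for the 1378 SGN-like cells with under 0.05% of counts in these markers, called low-glia neurons. On the first and second E16.5 plates 69 of 353 and 57 of 358 SGN-like cells were at or over this limit, despite the low medians. Reads ran the other way too: neuron markers summed to 522 to 757 CPM in glia-like cells of the shallower plates but 5655 and 7999 on the first and second E16.5 plates and 3075 and 3614 at E18.5, and to 6394 and 8672 in OM-like cells of the first and second E16.5 plates.

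Among SoxB genes *Sox2* was highest in glia-like cells and *Sox21* in hair cells and epithelium, and both were near 0 in neurons once glial reads were set aside. *Sox2* in glia-like cells ran from 66.3 CPM through a median of 148 to 184 (137 ± 44.7, SD, n = 10 plates). The values by plate were 184 and 150 at E14.5, 179 and 183 at E15.5, 85.0, 66.3 and 147 at E16.5, 175 at E17.5 and 108 and 95.4 at E18.5. The lowest glia-like values belonged to the first and second E16.5 and the E18.5 plates, the plates whose glia-like sums held 17 cells or fewer and the most neuron reads, and the part of those reads in the lower level was not tested. SGN-like cells had a lowest, median and highest *Sox2* of 0.0598, 5.02 and 29.8 CPM and did not overlap glia-like cells. In low-glia neurons the 12 plates fell between 0 and 1.58 CPM. OM-like cells had a median of 0.146 CPM and reached 16.8 on the first E16.5 plate, in a sum of 5 cells whose glial markers stood at 2276 CPM.

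HC-like cells also carried *Sox2*, at 56.2 and 27.7 CPM on the first and the third E16.5 plates, 109 at E17.5 and 51.1 and 52.9 at E18.5. The first 3 of these rest on 4, 8 and 5 cells, and the E18.5 plates on 37 and 32. HC-like sums also held OM markers at 21.7 to 2302 CPM and epithelium markers at 1480 to 3592. The part of such reads in the levels of the members and listed genes in HC-like cells was not tested. *Sox21* showed a narrower range of cells: 115 and 110 CPM at E16.5, 106 at E17.5 and 62.7 and 61.4 at E18.5 in HC-like cells, against at most 2.86 CPM in glia-like, 2.99 in OM-like and 0.324 in SGN-like cells on any plate. The few epithelium-like cells, from plates with 8, 8 and 5 of them, had *Sox21* at 23.6, 127 and 337 CPM and *Sox2* at 37.0, 150 and 78.3 CPM. *Sox21* thus separated HC-like and epithelium-like sums from the SGN-like, glia-like and OM-like sums without overlap, while *Sox2* did not separate them from glia-like cells. Outside the named classes, 7 unnamed cells of E17.5 led by *Olig1*, a gene of central glia, held *Sox21* at 57.6 CPM, within the epithelium-like range.

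*Sox3*, the third SoxB gene and a close relative of *Sox2*, stayed at or under 3.46 CPM in every class. Glia-like cells held between 0.302 and 3.46 CPM with a median of 1.63, and SGN-like cells between 0 and 2.47 with a median of 0.253. The 2 highest neuron values, 1.94 and 2.47 CPM, were those of the P3 plates, and low-glia neurons of P3 had 1.25 and 1.97. OM-like cells reached at most 0.129 CPM, and no *Sox3* read was counted in HC-like cells of the 5 plates that held them.

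SoxC genes were found in every class, and *Sox11* and *Sox12* were highest in neurons. *Sox11* ran from 163 CPM through a median of 782 to 1160 in SGN-like cells (745 ± 346, SD, n = 12), against medians of 221 in glia-like, 315 in OM-like, 115 in HC-like and 227 in epithelium-like cells. Glia-like and OM-like cells nevertheless reached 724 and 1043 CPM, in both cases on the first or second E16.5 plate, so the classes overlapped in range. On the shallower plates, where neuron reads were few in other classes, *Sox11* in glia-like cells fell within 140 to 236 CPM and in OM-like cells within 195 to 381, below every SGN-like value of the same stages. *Sox12* had a lowest, median and highest value of 40.1, 66.3 and 100 CPM in SGN-like cells (71.3 ± 18.9, n = 12), 18.6, 34.0 and 57.9 in glia-like, 13.2, 25.98 and 71.7 in OM-like and 23.1, 29.9 and 54.9 in HC-like cells. *Sox4* differed least between classes, with medians of 85.3 CPM in SGN-like, 69.5 in glia-like, 84.2 in OM-like and 39.6 in HC-like cells, whose ranges overlapped. Epithelium-like cells had the highest *Sox4* median, 117 CPM (78.7 to 119), above every HC-like plate (30.4 to 70.4).

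SoxE genes were highest outside the neurons. *Sox9* had medians of 221 CPM in OM-like cells (232 ± 97.2, n = 8) and 186 in HC-like cells (204 ± 51.0, n = 5), 39.4 in glia-like and 20.9 in SGN-like cells. The OM-like plates held 252 and 289 CPM at E14.5, 186 and 190 at E15.5, 133.4, 95.8 and 348 at E16.5 and 362 at E17.5, and the HC-like plates 160 to 276. Epithelium-like cells held the most, 305, 262 and 618 CPM. OM and epithelium markers were also present in the HC-like sums, and their part in the HC-like *Sox9* was not tested. Glia-like cells (8.88 to 80.1) lay below every OM-like plate, and SGN-like cells (3.14 to 97.6) overlapped glia-like cells over the whole of that range. *Sox8* ran from 2.63 to 64.6 CPM with a median of 19.5 in OM-like cells, 1.09 to 8.39 in glia-like, 0 to 7.24 in SGN-like and 0 to 6.27 in HC-like cells.

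**Figure D1:**
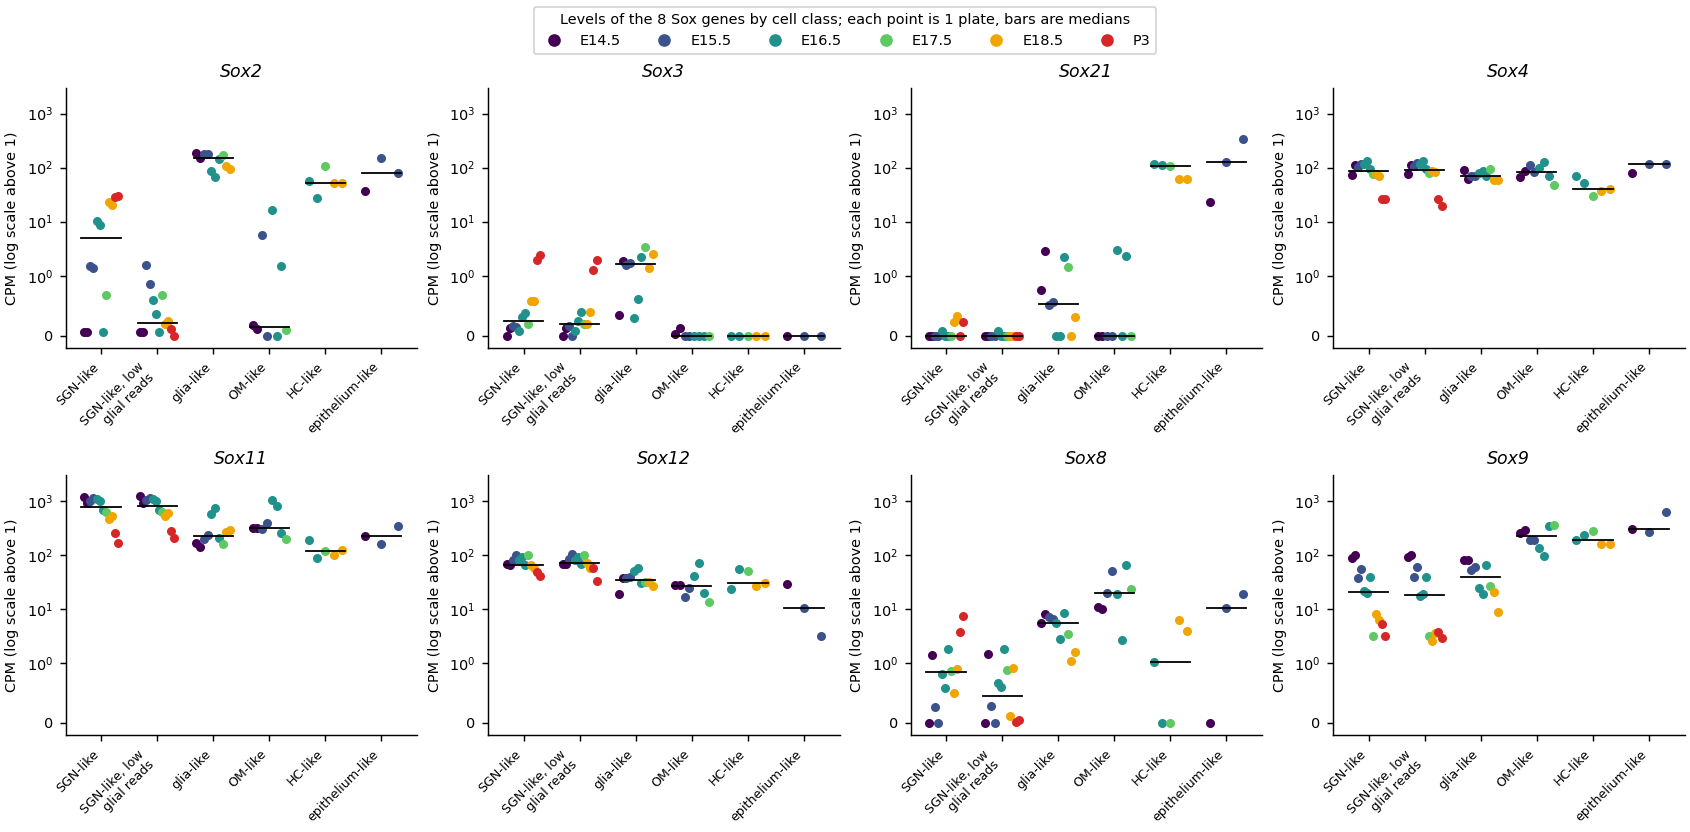
Level of each of the 8 genes in CPM (log axis above 1, linear below) by cell class, SGN-like cells also shown for the low-glia neurons alone; each point is 1 plate, colored by stage, and bars are medians. *Sox2* in low-glia neurons stays at or below 1.58 CPM while glia-like plates sit between 66.3 and 184, *Sox21* is at 23.6 CPM or more in HC-like and epithelium-like cells and at most 2.99 in the others, and *Sox11* has its highest points in SGN-like cells.

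These class differences were tested by edgeR's quasi-likelihood test on counts summed per class and plate, with plate as a block for glia-like, OM-like and SGN-like cells. Between glia-like and SGN-like cells 5 of the 7 members tested passed an adjusted p of 0.05 (3 higher and 2 lower in glia), beside 56.2% of all genes tested (27.5% higher and 28.7% lower), and *Sox21* was left out by the filter on low counts. As most genes passed, the number of members called is no result by itself, and the sizes are what the comparison gives. *Sox2* was higher in glia by 6.50 on the log2 scale (SE 1.20, adjusted p 0.000179), and by 8.70 against low-glia neurons. *Sox3* was higher by 2.77 (SE 0.61, adjusted p 0.000816 by edgeR) and *Sox8* by 2.89 (SE 0.68, adjusted p 0.00152). *Sox11* was lower (-1.62, SE 0.22, adjusted p 6.89e-06 by edgeR), and by -2.24 on the shallower plates alone, and so was *Sox12* (-1.07, SE 0.18, adjusted p 8.02e-05). *Sox4* (-0.27, SE 0.13, adjusted p 0.0766 by edgeR) and *Sox9* (0.47, SE 0.33, adjusted p 0.232) did not pass, with *Sox4* passing in 7 of 18 alternative settings, among them without the first E14.5, the first or second E16.5 or the E17.5 plate (adjusted p 0.00473 to 0.0492), and *Sox9* in 0 of 18.

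Against SGN-like cells, OM-like cells had 5 of 7 members past the threshold (2 higher and 3 lower), beside 54.2% of all genes (25.8% higher and 28.4% lower). Both SoxE genes were higher in OM, *Sox9* by 2.74 on the log2 scale (SE 0.37, adjusted p 9.91e-06 by edgeR) and *Sox8* by 4.86 (SE 0.79, adjusted p 5.61e-05). *Sox11* (-1.15, SE 0.23, adjusted p 0.000367 by edgeR) and *Sox12* (-1.50, SE 0.20, adjusted p 9.44e-06) were lower. *Sox3* was lower too (-2.52, SE 0.86, adjusted p 0.0185 by edgeR), but the call was lost under a stricter cell filter (adjusted p 0.197) and without the third E16.5 plate (0.0620). *Sox2* (-0.74, SE 1.21, adjusted p 0.630) and *Sox4* (-0.21, SE 0.14, adjusted p 0.196) did not pass in edgeR. Set directly against each other, glia-like and OM-like cells differed in 4 of 7 members, 2 each way, beside 20.4% of all genes (10% higher and 10.4% lower): *Sox2* (7.24, SE 1.28, adjusted p 0.000523 by edgeR) and *Sox3* (5.29, SE 0.84, adjusted p 0.000209) were higher in glia, and *Sox9* (-2.27, SE 0.37, adjusted p 0.000284) and *Sox8* (-1.97, SE 0.66, adjusted p 0.0427) were higher in OM. The *Sox8* call held in 6 of 17 alternatives, and was lost without any one of 7 plates (adjusted p 0.0563 to 0.118).

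Hair cells could be tested at E18.5 alone, on 2 plates with 2 residual degrees of freedom. Each of the 8 members passed in edgeR, beside 57.2% of all genes, with 4 higher (27.9% of all genes) and 4 lower (29.3%) in HC-like than in SGN-like cells. *Sox21* led with a log2 difference of 7.79 (SE 0.23, adjusted p 4.57e-05 by edgeR), followed by *Sox9* at 4.52 (SE 0.17, adjusted p 6.46e-05), *Sox8* at 2.87 (SE 0.55, adjusted p 0.00878) and *Sox2* at 1.25 (SE 0.14, adjusted p 0.00140). The *Sox2* difference grew to 7.78 and that of *Sox9* to 5.64 when low-glia neurons took the place of all neurons. All 3 SoxC genes were lower in HC-like cells, *Sox11* by -2.17 (SE 0.16, adjusted p 0.000387 by edgeR), *Sox12* by -1.11 (SE 0.14, adjusted p 0.00225) and *Sox4* by -0.93 (SE 0.11, adjusted p 0.00188). *Sox3* was at 0 in both HC-like sums, which at a limit of 3 counts over both plates (0.140 CPM) is at least 4.13-fold lower than the 0.578 CPM of SGN-like cells and at least 2.11-fold lower than the 0.295 CPM of low-glia neurons. Its edgeR call (adjusted p 0.0208) was lost with DESeq2 (0.0648) and with a plate block (0.0645).

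**Figure D2:**
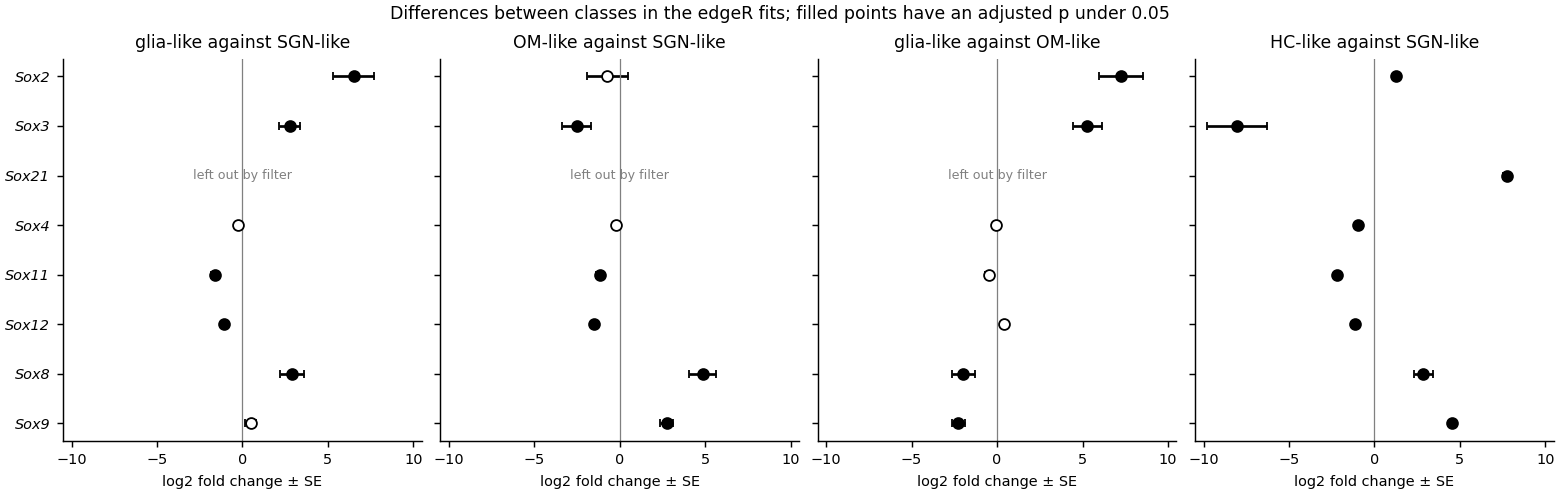
Log2 fold change of the 8 members in the 4 class comparisons (glia-like against SGN-like, OM-like against SGN-like, glia-like against OM-like, and HC-like against SGN-like at E18.5), with bars of 1 SE; filled points have an edgeR adjusted p under 0.05. *Sox21* has a point in the HC comparison alone, at 7.79, and *Sox11* and *Sox12* lie left of 0 in the 3 comparisons against SGN-like cells.

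Per length the order of the genes differed by class. In SGN-like cells *Sox11* stood first at 89.6 ± 41.6 CPM per kilobase (SD, n = 12), ahead of *Sox4* at 17.8 ± 6.98 and *Sox12* at 16.0 ± 4.25, which did not differ beyond their spread, and then *Sox9* at 7.70 ± 7.89. In glia-like cells the order was *Sox2* (66.7 ± 21.7 CPM per kilobase, n = 10), *Sox11* (35.4 ± 23.3), *Sox4* (15.4 ± 2.72) and *Sox9* (10.496 ± 6.45). In OM-like cells *Sox9* (56.1 ± 23.5 CPM per kilobase, n = 8) and *Sox11* (54.4 ± 36.6) were level within their spread. The glia-like and OM-like *Sox11* means include the first and second E16.5 plates, where *Sox11* reached 724 and 1043 CPM before division by length. Those sums held the most neuron reads of their classes, and the part of such reads in the order was not tested. In HC-like cells *Sox9* came first (49.3 ± 12.3 CPM per kilobase, n = 5), with *Sox2* (28.9 ± 14.6) and *Sox21* (24.0 ± 6.998) within their spread of each other. *Sox3* was at or under 1 CPM per kilobase in all 5 of these classes.

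Detection in single cells was compared at 1 depth. Each cell was thinned to 100000 counts, and the 155 shallower cells were left out. *Sox2* was detected in 93.4 ± 6.30% of glia-like cells (SD, n = 10 plates) and in 1.61 ± 1.12% of low-glia neurons (n = 12), *Sox11* in 99.6 ± 1.03%, *Sox4* in 90.6 ± 9.36% and *Sox12* in 87.5 ± 7.75% of SGN-like cells. *Sox21* was detected in 72.4 ± 24.2% of HC-like cells (n = 4), and *Sox9* in 84.4 ± 8.73% of OM-like cells and *Sox8* in 21.7 ± 16.4% (n = 8). Of 67 HC-like cells with *Sox2*, 61 also had *Sox9*, and of 63 with *Sox21*, 58 also had *Sox2*. Of 338 glia-like cells with *Sox9*, 306 had *Sox2* (90.5%), but these were 34.3% of the 891 glia-like cells with *Sox2*. Of 84 OM-like cells with *Sox8*, 77 had *Sox9*, or 17.0% of the 454 with *Sox9*. Among low-glia neurons 1255 of 1257 cells with *Sox4* also had *Sox11*. Without thinning the plates gave 78.6% to 100% for *Sox2* in glia-like cells and 0% to 5.05% in low-glia neurons. No allowance was made for pairs in which both genes are common, as *Sox4* and *Sox11* are.

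In SGN-like cells *Sox9* fell between E14.5 and E18.5, and *Sox4* and *Sox11* fell between E18.5 and P3, *Sox11* also from E16.5 to E18.5. *Sox11* in SGN-like cells stood at 1160 and 896 CPM at E14.5, 1011 and 1150.2 at E15.5, 1059, 978 and 667 at E16.5, 609 at E17.5, 468 and 527 at E18.5 and 251 and 163 at P3. The P3 plates were below all others and the E18.5 plates below all earlier ones. In low-glia neurons the same gene held 1242 and 928 CPM at E14.5, 533 and 600 at E18.5 and 281 and 209 at P3. *Sox4* was between 71.5 and 130 CPM on every plate up to E18.5 and at 26.5 and 26.7 CPM at P3, without overlap, and low-glia neurons of P3 had 26.7 and 19.6. *Sox12* ran between 56.8 and 100 CPM through E18.5 and stood at 47.7 and 40.1 CPM at P3.

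*Sox9*, by contrast, was highest in the youngest neurons: 85.8 and 97.6 CPM at E14.5, 37.1 and 55.8 at E15.5, 21.7, 20.1 and 38.4 at E16.5, 3.15 at E17.5, 7.93 and 6.11 at E18.5 and 5.15 and 3.14 at P3. The E14.5 plates lay above all later ones and the E17.5 to P3 plates below all earlier ones. Low-glia neurons had 91.2 and 101 CPM at E14.5 and 2.54 to 3.68 CPM from E17.5 to P3. OM markers, which mark a class with much *Sox9*, summed to 77.2 and 136 CPM in SGN-like cells of E14.5, against at least 4671 in OM-like cells, and their part in the *Sox9* reads of those neurons was not tested. *Sox2* took the opposite course, from 0.0598 and 0.0650 CPM at E14.5 to 28.3 and 29.8 at P3, together with the glial list, which went from 131 and 72 CPM at E14.5 to 2519 and 2579 at E18.5 and 6124 and 7341 at P3. In low-glia neurons *Sox2* was 0.115 and 0 CPM at P3 and 0.199 and 0.239 at E18.5.

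**Figure D3:**
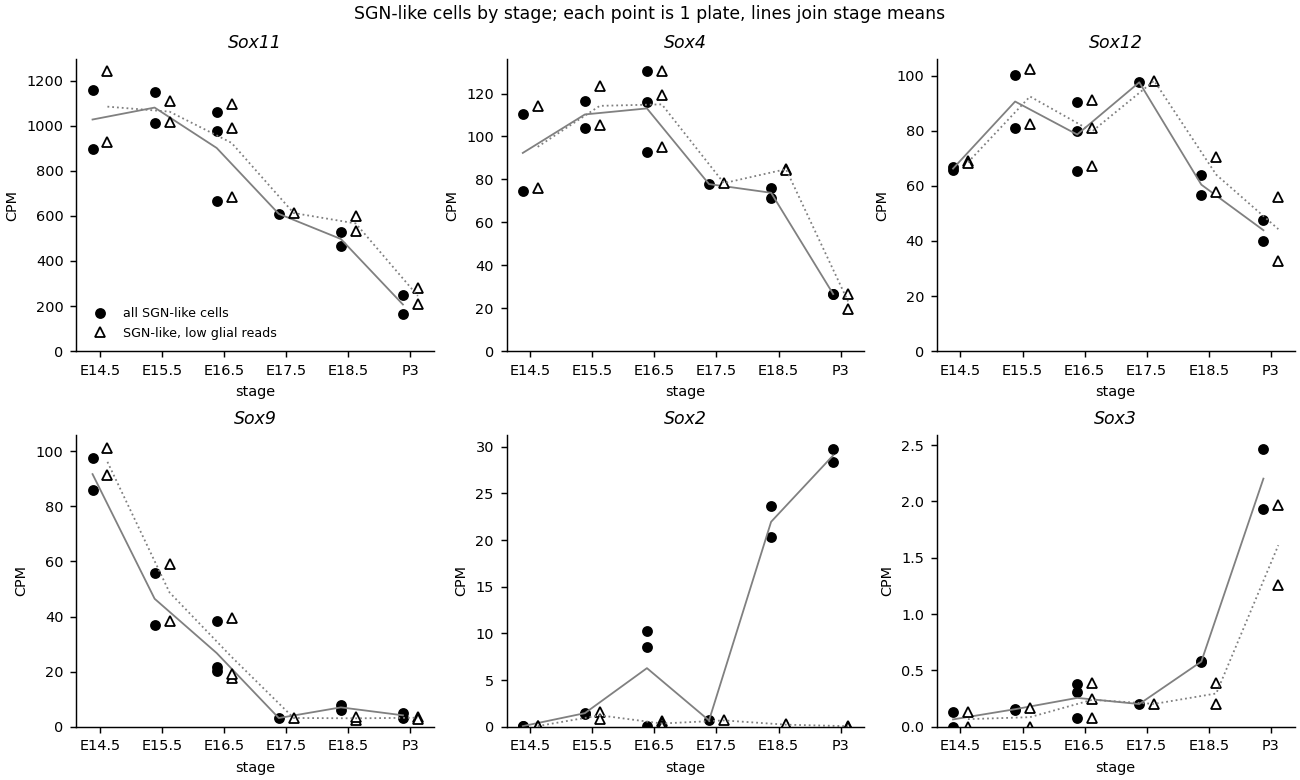
Levels of 6 Sox genes in SGN-like cells by stage in CPM (linear axis); filled circles are plates with all SGN-like cells, open triangles the same plates with low-glia neurons alone, and lines join the stage means. *Sox11* descends from about E15.5 to P3 in both sets and *Sox9* is highest at E14.5, whereas *Sox2* climbs in the filled circles only and its triangles stay at or under 1.58 CPM.

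In the stage fit over all SGN-like sums (6 residual degrees of freedom), E16.5 against E14.5 called 2 of 8 members, 1 each way, beside 14.9% of all genes (8.84% higher and 6.05% lower). *Sox9* fell by 1.86 on the log2 scale (-1.86, SE 0.33, adjusted p 0.00412 by edgeR), and by 1.92 in low-glia neurons (-1.92, adjusted p 0.00346). On the shallower plates alone, which leave 1 plate at E16.5 that is assumed to vary like the others, the *Sox9* difference was -1.28 (adjusted p 0.114 by edgeR). *Sox2* rose by 6.54 (SE 1.63, adjusted p 0.0228 by edgeR), but by 2.36 in low-glia neurons (adjusted p 0.408) and by 0.00 on the shallower plates, and the call was lost without the first or the second E16.5 plate (adjusted p 0.0542 and 0.0535) and without the first or the second E14.5 plate (0.108 and 0.0938).

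From E16.5 to E18.5, 2 of 8 members were called, both lower, beside 4.64% of all genes (2.5% higher and 2.14% lower). *Sox9* fell again (-1.95, SE 0.36, adjusted p 0.0137 by edgeR), by more in low-glia neurons (-3.04, adjusted p 0.00198), though the call was lost without the first or the second E18.5 plate (adjusted p 0.110 and 0.182). *Sox11* fell by 0.87 (-0.87, SE 0.21, adjusted p 0.0415 by edgeR), a call that was lost without any one of 6 plates (adjusted p 0.0583 to 0.285) and not in low-glia neurons (-0.71, adjusted p 0.0836). *Sox4* differed by -0.64 with an adjusted p of 0.0704 by edgeR, and passed without either E14.5 plate (0.0225 and 0.0238) or the third E16.5 plate (0.0432). From E18.5 to P3, 2 of 8 members were called, a share like the 24.8% of all genes (12.6% higher and 12.1% lower): *Sox4* fell by 1.47 (-1.47, SE 0.19, adjusted p 0.000366 by edgeR) and *Sox11* by 1.27 (-1.27, SE 0.23, adjusted p 0.00225), both in 17 of 17 alternatives. *Sox12* (-0.46, adjusted p 0.0663 by edgeR) and *Sox3* (1.92, SE 1.09, adjusted p 0.243) did not pass. The P3 plates come from an earlier study with a plate series of its own, and the E18.5 plates, sorted at another facility by the study's account, also form a series of their own, so stage and plate series cannot be told apart in the intervals that begin or end at E18.5.

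Some genes of immature neurons, of the kind SoxC factors turn on, fell in each of these intervals, and most of the list fell in the last. Of 18 immature neuron genes (*Neurog1*, *Neurod1*, *Ebf2*, *Dcx*, *Stmn1* and others), 8 fell and 0 rose from E14.5 to E16.5 (6.05% and 8.84% of all genes), with *Nhlh1* (-6.59), a bHLH factor of newborn neurons, and *Ebf2* (-4.67) changing most. From E16.5 to E18.5, 4 fell and 14 were not called, beside 2.14% of all genes lower, led by *Ebf2* (-2.65) and *Nhlh2* (-1.54). From E18.5 to P3, 13 fell and 1 rose (12.1% and 12.6% of all genes), with a median log2 change of -1.28 beside -0.07 over all genes tested, *Ebf2* at -6.91, *Nhlh1* at -4.31 and *Stmn2*, a microtubule regulator of growing axons, at 0.55. POU and PAX partners gave 2 lower of 7 in the last interval, *Pou3f4* (-2.07) and *Pou2f1* (-0.67). Of 15 cartilage genes tested in neurons 4 rose from E14.5 to E16.5, beside 8.84% of all genes, led by *Matn4* (5.37) and *Col11a1* (3.03), and 7 fell and 1 rose from E18.5 to P3, beside 12.1% and 12.6%, with *Col9a1* at -5.26 and *Hapln1* at 6.39. In the first of these intervals 3 of 9 glial markers rose and 1 fell (median 3.71, *Foxd3* 6.57, *Cdh19* 6.25). In low-glia neurons the E16.5 minus E14.5 difference was 1.94 for *Col11a1* (adjusted p 0.0211 by edgeR), and that of *Matn4* no longer passed (3.46, adjusted p 0.0721).

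Type II-like neurons stood apart from type I-like neurons in *Sox9*. At E18.5 they held 50.0 and 37.4 CPM (26 and 20 cells) and at P3 64.2 and 84.3 CPM (18 and 4 cells). Ia-like neurons held 2.23 and 3.34 CPM at E18.5 and 0.959 and 0.616 at P3, Ib-like neurons 4.16 and 1.12 and then 1.05 and 0.321, and Ic-like neurons 1.66 and 3.43 and then 0.218 and 0. Each II-like value was above every type I-like value. The 2 II-like cells of E17.5 had no *Sox9* read. Markers of other classes with *Sox9* had these levels: the OM list summed to 129 to 684 CPM in II-like and 113 to 361 in type I-like sums, the epithelium list to 1.59 to 8.24 against 3.51 to 20.2, the HC list to 129 to 203 against 208 to 370, and the glial list to 2769 to 5254 against 972 to 8027. In low-glia neurons the OM list was at 39.3 to 103 CPM in II-like and 48.5 to 179 in type I-like sums. The OM list was thus higher in the II-like sums of E18.5 than in any type I-like sum when all cells were used, and its part in the *Sox9* difference was not tested.

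In the edgeR fit of E18.5 and P3, in which the 4 II-like cells of the second P3 plate were too few to enter, 3 of 7 members were called between II-like and type I-like neurons beside 22.8% of all genes (10.2% higher and 12.7% lower). *Sox9* was higher in II-like neurons by 5.11 on the log2 scale (SE 0.65, adjusted p 0.000162 by edgeR), within 4.02 to 6.57 in the alternatives, all 10 of which kept the call. *Sox2* was higher by 1.04 (SE 0.19, adjusted p 0.00179 by edgeR), at 41.9 and 27.6 CPM at E18.5 and 30.3 and 14.1 at P3 against 10.6 to 30.3 in type I-like sums, which overlapped, and 7 of 8 glial markers tested were also higher in II-like neurons, whose part in the *Sox2* difference was not tested. *Sox4* was lower (-0.74, SE 0.15, adjusted p 0.00408 by edgeR), with 38.7 and 37.2 CPM against 66.0 to 78.8 at E18.5 and 17.8 and 16.7 against 18.51 to 30.2 at P3, so the groups did not overlap within a stage. Without the first or the second E18.5 plate the *Sox4* call was lost (adjusted p 0.0740 and 0.0722). *Sox11* (0.21, adjusted p 0.330 by edgeR) and *Sox8* (1.34, adjusted p 0.0565) did not pass.

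For *Sox9* the same was seen in cells with few glial reads, where numbers were small. Of 11 low-glia II-like neurons of E17.5, E18.5 and P3 together, 6 had a *Sox9* count (54.5%, exact Clopper-Pearson 95% interval 23.4 to 83.3). The share was 8.03% (4.08 to 13.9) of 137 Ia-like, 7.53% (3.08 to 14.9) of 93 Ib-like and 4.12% (1.13 to 10.2) of 97 Ic-like neurons, and the intervals cover counting error only. Summed over these cells *Sox9* stood at 54.6 CPM in II-like neurons and at 0.821, 1.18 and 1.02 in Ia-like, Ib-like and Ic-like neurons. *Sox2* was found in 0 of the 11 low-glia II-like neurons, which allows a share of up to 27.3% at a limit of 3 cells with a count (exact interval up to 28.5%). It was found in 5 of 137 Ia-like, 4 of 93 Ib-like and 3 of 97 Ic-like neurons. The 11 cells are 2 of E17.5, 1 and 4 on the E18.5 plates and 3 and 1 on the P3 plates. Each number is under the minimum of 5 a sum used elsewhere. The 2 cells of E17.5, which had no *Sox9* read, enter no fit. A fit with sums of at least 1 such cell, chosen after seeing the data, gave a II-like difference of 6.57 for *Sox9* (adjusted p 0.000412 by edgeR), -1.52 for *Sox4* (adjusted p 0.00644) and 0.55 for *Sox11* (adjusted p 0.0380), which had not passed with all cells, and 2 of its 4 II-like sums are single cells.

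**Figure D4:**
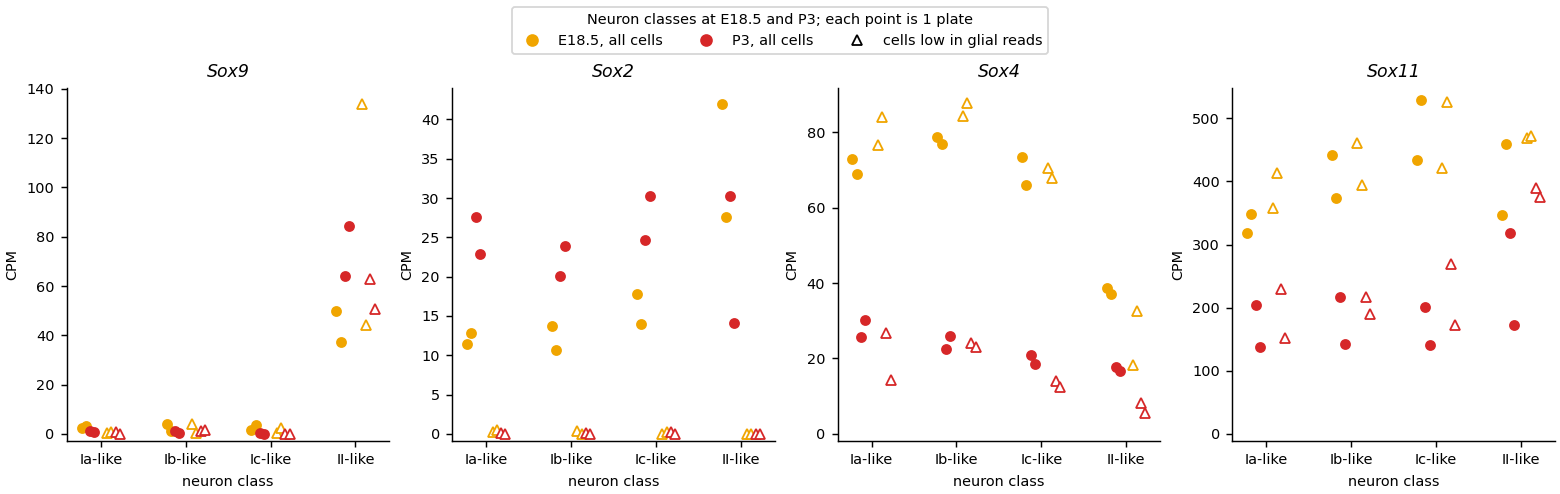
*Sox9*, *Sox2*, *Sox4* and *Sox11* in Ia-like, Ib-like, Ic-like and II-like neurons of E18.5 and P3 in CPM (linear axes), for all cells and for cells low in glial reads, with 1 point a plate. *Sox9* is at 37.4 CPM or more in all-cell II-like sums and at 4.16 or less in the type I-like ones, and *Sox2* drops to near 0 in cells low in glial reads.

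Among the pathway lists, 9 of 14 Notch and prosensory genes were higher and 2 lower in II-like neurons, beside the 10.2% and 12.7% of all genes, with *Hey1* (1.49) and *Hes1* (1.36), 2 targets of Notch, highest, and *Prox1* (-3.43), a homeobox factor, and *Cdkn1b* (-1.05) lowest. Of 8 glial markers 7 were higher in the same comparison, and 11 of these 14 genes were higher in glia-like than in SGN-like cells. In the fit of low-glia neurons with sums of at least 1 cell, *Hey1* (2.30, adjusted p 0.00355 by edgeR) and *Prox1* (-3.54, adjusted p 0.000145) passed and *Hes1* did not (0.77, adjusted p 0.808). Of 11 cartilage genes tested 3 were higher, led by *Col2a1* (1.57) and *Col9a3* (1.10). Immature neuron genes went both ways, 2 higher and 4 lower of 14, with *Ebf3* at 1.44 and *Neurod1*, a driver of SGN differentiation, at -3.15.

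The classes of younger neurons differed in *Sox9* at E14.5, in another way than at E15.5. At E14.5 *Sox9* stood at 94.0 and 121 CPM in intermediate Ia/Ib/II-like neurons (15 and 19 cells), 28.8 and 60.0 in Ic-like (8 and 10 cells) and 0.217 and 9.47 in unspecialized-like neurons (18 and 10 cells), an order shared by both plates. At E15.5 the order was not the same. Ic-like neurons (17 and 20 cells) held 1.55 and 26.1 CPM and intermediate neurons (15 and 19 cells) 0.271 and 16.9. Ic-like neurons were higher on both plates, but the values of the first plate rest on very few reads. SGN-like cells without a subclass name were left out at each stage. On both E15.5 plates SGN-like cells as a whole held more *Sox9* than either class. At E16.5 Ic-like neurons held 19.6, 12.3 and 11.7 against 15.45, 12.6 and 41.0 CPM. The fit of Ic-like against intermediate neurons at E16.5 called 0 of 7 members beside 2.11% of all genes (1.23% higher and 0.888% lower by edgeR, 1713 genes at an unadjusted p under 0.05). *Sox4* had the lowest adjusted p there (-0.46, adjusted p 0.140 by edgeR), and 0.0318 with DESeq2. Without the third E16.5 plate *Sox2* (2.11, adjusted p 0.0142 by edgeR), *Sox4* (-0.38, adjusted p 0.00850) and *Sox11* (-0.17, adjusted p 0.0236) passed. Ic-like against Ia-like neurons at E18.5 and P3 also called 0 of 7, beside 5.36% of all genes (2.52% higher and 2.84% lower, 2534 at an unadjusted p under 0.05), with *Sox9* at -0.99 (adjusted p 0.623 by edgeR).

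Within the mesenchyme of E14.5 *Sox9* followed cartilage genes. The cluster led by *Col2a1*, *Igf2* and *Matn1*, 19 and 16 cells on the 2 plates, held *Sox9* at 683 and 865 CPM, and its 14 cartilage genes summed to 26504 and 23102. The cluster led by *Sfrp2* and *Penk* (21 and 32 cells) followed with 568 and 485 for *Sox9* and 15994 and 12081 for the cartilage genes. The lowest cartilage sums, 911 and 735 CPM, were those of the *Col1a1* and *Crabp1* cluster, with *Sox9* at 110 and 154. The other 3 clusters lay between them in cartilage genes, at 3137 to 5464, and held *Sox9* at 122 to 271 CPM, so that *Sox9* in the first 2 clusters lay above all others on both plates, while the rest overlapped. As *Col2a1* and *Matn1* helped to define these clusters, their order in cartilage genes is a description.

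*Sox11* had another distribution over the same clusters, at 628 and 704 CPM in the *Apod* and *Tbx18* cluster, 511 and 391 in the *Tgfbi* and *Otor* cluster, 149 and 306 in the *Sfrp2* cluster, 39.9 and 79.2 in the *Col2a1* cluster and 38.3 and 54.4 in the *Col1a1* and *Crabp1* cluster. Both ends of the cartilage range were thus low in *Sox11*. *Sox8* ran from 1.31 to 26.96 CPM, with no order shared by the plates.

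**Figure D5:**
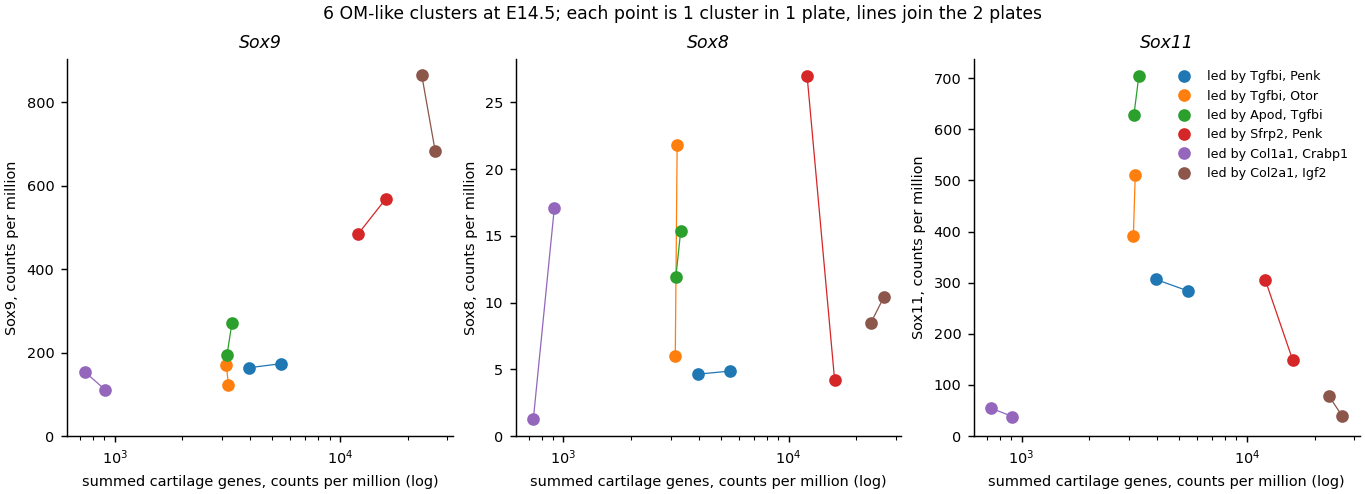
*Sox9*, *Sox8* and *Sox11* in CPM against the summed CPM of 14 cartilage genes (log axis) for 6 OM-like clusters of E14.5 on 2 plates; lines join the 2 plates of a cluster. *Sox9* is highest, 485 to 865, in the 2 clusters with cartilage sums of 12081 or more, and *Sox11* is lowest at both ends.

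Across classes, 10 of 13 cartilage genes tested were higher in OM-like than SGN-like cells and 0 lower, beside 25.8% and 28.4% of all genes, with a median log2 difference of 3.81 beside -0.09 over all genes and *Col9a1* (7.73) and *Col2a1* (6.57), collagens of cartilage, at the top. In glia-like cells 8 of 13 were higher than in SGN-like cells, beside 27.5% of all genes, led by *Sox6* (4.63) and *Lect1* (4.34, a name of *Cnmd*), and 4 were lower than in OM-like cells, beside 10.4%, with *Col9a1* at -6.39 and *Col2a1* at -4.10. Hair cells had 9 higher and 1 lower of 13 than SGN-like cells, beside 27.9% and 29.3% of all genes, with *Ucma* at 10.93, *Lect1* at 8.79 and *Hapln1* at -10.25. Of 14 Notch and prosensory genes, 11 were higher and 1 lower in glia-like than SGN-like cells, beside 27.5% and 28.7%, with *Hey2* at 5.22, *Notch1* at 5.07 and *Prox1* at -2.25, and 7 were higher and 4 lower in HC-like cells, beside 27.9% and 29.3%, with *Lfng* at 6.32, *Hes5* at 3.71 and *Prox1* at -2.12. Immature neuron genes were the reverse, 14 lower and 1 higher of 16 in glia-like cells, beside 28.7% and 27.5%, with *Neurod6* at -7.04 and *Neurod1* at -6.77. Of the other Sox genes tested, 4 of 4 were higher in glia-like cells, beside 27.5%, led by *Sox10* (6.35), the SoxE gene of the glial lineage, and HC-like cells had *Sox1* (7.92) and *Sox6* (3.84) higher. The partner factors split in both HC-like and OM-like cells. In HC-like cells 3 were higher and 4 lower of 7, beside 27.9% and 29.3% of all genes. *Pax2* (9.33) and *Pou3f3* (6.26) were highest there, and *Pou3f4* (-4.57) and *Pou3f1* (-3.72) lowest. In OM-like cells 2 were higher and 2 lower of 6, beside 25.8% and 28.4%. *Pou3f3* (5.89) and *Pou3f4* (3.78) were the higher ones, and *Pou3f2* (-3.12) and *Pax6* (-3.01) the lower. *Hey2* (-1.77) and *Sox10* (-0.42) were lower in HC-like cells than in all SGN-like cells and higher than in low-glia neurons (3.58 and 5.24).

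Over time glia-like and OM-like cells gave no member past the threshold. In glia-like cells *Sox9* went from 80.1 and 78.8 CPM at E14.5 through 52.6 and 59.4 at E15.5 to 20.4 and 8.88 at E18.5, with 24.2, 18.6 and 64.7 at E16.5. The glia-like test set the mean of E16.5 and E17.5 against E14.5, and E15.5 and E18.5 were not compared. It gave 0 of 8 members beside 0.0116% of all genes (edgeR, 1652 genes at an unadjusted p under 0.05), with *Sox9* at -1.36 (SE 0.53, adjusted p 0.477). Without the third E16.5 plate *Sox9* (-1.75, adjusted p 0.0133 by edgeR) and *Sox11* (1.04, adjusted p 0.00575) passed. The E16.5 sums then left held 17 and 9 glia-like cells, with neuron markers at up to 7999 CPM. The part of those neuron reads in the *Sox11* difference was not tested. The later OM-like sums gave 0 of 7 beside 0.00635% of all genes (646 at an unadjusted p under 0.05), with *Sox9* at -0.20 (adjusted p 1.00 by edgeR).

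Hair cell subclasses, like the mesenchyme clusters in CPM without TMM scaling, rest on few cells and were given no test. At E18.5 the vestibular-like HCs of the first plate (10 cells) held *Sox2*, *Sox21* and *Sox9* at 48.3, 99.1 and 102 CPM, and those of the second plate (5 cells) at 0, 0 and 1.72. Inner HC-like cells (2 and 14 cells) had *Sox9* at 63.3 and 170 CPM, and outer HC-like cells (8 and 3 cells) at 63.0 and 98.6. At E17.5 the 3 inner HC-like cells had *Sox2* at 84.2, *Sox21* at 122 and *Sox9* at 124 CPM. The vestibular-like cells of the second plate were thus the lowest sum for these 3 genes, but *Sox11* was at 23.3 and 22.4 CPM in the vestibular-like cells of the 2 plates, and the plates also differed in *Sox21* of inner HC-like cells, at 5.43 and 44.1 CPM.

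Each member was last set beside the genes whose levels were most like it, by Pearson's correlation of log2(CPM + 1) over 37 class sums, which share plates and depth, among 17430 genes. *Sox2* was closest to *Ttyh1* (0.953), *Sox10* (0.9502) and *Igsf11* (0.938), *Sox21* to *Otog* (0.962), which encodes otogelin of the ear's acellular membranes, and *Sox11* to *Hn1* (0.914), *Stmn1* (0.907) and *Dpf1* (0.888). *Sox9* was closest to *Pvrl2* (0.886), *Igfbp5* (0.881) and *Mfap4* (0.867), and *Sox12* to *Btbd2* (0.872). *Sox4* (*Ylpm1*, 0.800), *Sox8* (*Srpr*, 0.854) and *Sox3* (*E130215H24Rik*, 0.838) had weaker nearest genes. Between members, *Sox4* and *Sox11* had a correlation of 0.71, *Sox11* and *Sox12* of 0.65 and *Sox8* and *Sox12* of -0.72 over the same sums.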

How the data were processed

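Raw counts were deposited as one table of cells by genes. Per the study's methods and the labels, the authors mapped Smart-seq2 reads (no molecular identifiers) to mm10 with spike-in sequences using STAR, kept uniquely mapped reads and combined plates in Scanpy. Versions and the strand setting are not given in the sources used here. 1 plate of 384 wells with no sample was not used, and no 2 kept cells held the same counts. Cells with over 1000 genes and under 5% spike-in counts were kept: 4226, of which 4028 were named, against 135 (E14.5) and 2139 (other stages) stated. No doublet caller was run.

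Cells were clustered per stage group (Scanpy 1.11.5, leidenalg 0.10.2, Python 3.11.15, 2000 variable genes, 30 components, 30 neighbours, resolution 1) without 1371 glial code genes and all Sox genes. Counts were summed per class and plate and tested with edgeR 4.0.16 in R 4.3.3 (quasi-likelihood, TMM scaling, filterByExpr, Benjamini-Hochberg adjusted p under 0.05 over all genes tested), and DESeq2 1.42.0 was an alternative. Plate was a block in the fits between classes of 1 plate, since such sums come from the same animals, except in the hair cell fit, where a block leaves 1 residual degree of freedom and was an alternative. CPM are TMM-scaled; for clusters, pooled cells and hair cell subclasses they are unscaled. Levels between genes were compared per kilobase of exons. Log2 differences are edgeR estimates. On simulated counts the glia-SGN fit recovered 83% of genes changed by a log2 of 2, the HC-SGN fit 96%, the E16.5-E14.5 fit 95%, the type II fit 100%, but the late glia fit 40% and the later OM fit 20%. At a log2 of 1 the same fits recovered 60%, 49%, 58%, 78%, 3% and 0%. Only genes above a minimum level were changed, so genes as low as *Sox3* are not covered, and no plate effect was simulated.

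The members and gene lists (other Sox genes, cartilage, Notch and prosensory, immature neuron, POU and PAX, glial markers) were chosen with earlier results of these data known. From each list at most 2 called genes higher and 2 lower, by absolute log2 change, were named, and for each member the 3 genes most correlated. Intervals cover counting error only.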

Additional observations from a re-analysis of the deposited data

Results flagged for a closer look

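*Sox9* differed between stages in its class differences, a test chosen after seeing the data. The glia-like minus SGN-like difference was larger by 1.62 on the log2 scale at E16.5 to E18.5 than at E14.5 (SE 0.31, adjusted p 0.0363 by edgeR; 0.75% of all genes were called), and by 2.08 against low-glia neurons (adjusted p 0.0260). The OM-like minus SGN-like difference was larger by 3.20 at E16.5 and E17.5 than at E14.5 (SE 0.34, adjusted p 0.00427 by edgeR; 0.196% called), and by 3.25 against low-glia neurons (adjusted p 0.01002). No other member passed in either test, with *Sox11* at 1.45 (adjusted p 0.0731) in the first.

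Epithelium-like cells entered no comparison, being 25 in all. Their lowest and highest plates held *Sox2* at 37.0 and 150 CPM, *Sox21* at 23.6 and 337 CPM and *Sox9* at 262 and 618 CPM, with the low end of *Sox21* and *Sox9* above every SGN-like and glia-like plate. The 8 unnamed cells led by *Olig1*, *Aqp4*, *Aldh1l1* and *Bcan*, genes of central glia, also entered none. As means weighted by cells they held *Sox9* at 389, *Sox2* at 78.8, *Sox8* at 64.3 and *Sox21* at 50.4 CPM. All these reads came from the 7 cells of E17.5, at 445, 90.1, 73.5 and 57.6 CPM, and the 1 cell of E18.5 had none.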

How the results depend on the processing

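Of the members' tests under the alternatives, 1160 kept their side of the threshold, 24 passed newly and 33 no longer passed. The 1160 include differences that turned sign without passing in either setting. For *Sox2* in OM-like against SGN-like cells it was -0.74, and 1.31 with low-glia neurons. Of the listed genes 1507 kept their direction and side of the threshold, 160 no longer passed, 10 turned sign and 1 came to 0. Counts of genes called moved with the tool, with plates left out and with neurons low in glial reads. With DESeq2, E16.5 against E14.5 in SGN-like cells gave 4135 genes in place of 2652, E18.5 against E16.5 1883 in place of 826, late glia 658 in place of 2, later OM 100 in place of 1, Ic-like against intermediate neurons 873 in place of 300 and Ic-like against Ia-like 1368 in place of 807. On the shallower plates alone the counts were 325 for E16.5 against E14.5, 130 for late glia and 19 for later OM. Without the filter on low counts late glia gave 98 and later OM 13, and a stricter cell filter and a Leiden resolution of 2 gave 7 and 1 for late glia. Low-glia neurons gave 416 for Ic-like against Ia-like, and with sums of at least 1 cell, chosen after seeing the data, 88 and, for type II-like, 1149 in place of 3438. The causes were not tested. Leaving out 1 plate at a time gave 1486 to 3534 for E16.5 against E14.5, 83 to 1265 for E18.5 against E16.5, 2109 to 5219 (main 4411) for P3 against E18.5, 0 to 1060 for late glia, 0 to 22 for later OM, 138 to 1698 for Ic-like against intermediate, 2044 to 3410 for type II-like and 356 to 642 for Ic-like against Ia-like neurons. The share of glia-like cells with *Sox3* was 11.6% in place of 4.28% at double depth, and of SGN-like cells with *Sox12* 78.9% in place of 87.5% at the lower depth.

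Signs turned with low-glia neurons in 10 results of listed genes, of which *Hey2* and *Sox10* in hair cells still passed. Against such neurons HC-like cells differed by 1.88 in *Cdh19*, 3.38 in *Foxd3*, 3.58 in *Hey2* and 5.24 in *Sox10*. Within them E18.5 minus E16.5 was -1.03 for *Hes1*, -1.72 for *Pou3f2* and -1.65 for *Sox13*, P3 minus E18.5 was 1.27 for *Heyl* and -0.0953 for *Mbp*, and type II-like minus type I-like was -0.30 for *Sox10*. *Gfra3* had no count in low-glia neurons of E18.5 and P3, so its 0.00 there is no turned sign.

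Without the replicate block, with stage in place of plate, the counts were 8522 for glia against SGN (main 8314), 8231 for OM against SGN (8014), 3113 for glia against OM (3021), 265 for Ic-like against intermediate (300), 3517 for type II-like (3438) and 781 for Ic-like against Ia-like (807), and with a plate block the HC count was 8247 (main 9192). Sums of 1 plate share animals, so the block pairs them. Among the members the block ended the *Sox3* call in hair cells. Leave-one-out for hair cells was not run for want of residual degrees of freedom, and low-glia type II-like sums of at least 5 cells could not be fitted. Counting 2 *Postn*-led clusters as glia was also chosen after seeing the data and gave 8515 for glia against SGN. The E18.5 glia-like sums, of 14 and 11 cells, were not compared with E14.5. They and the hair cells limit what comparisons between classes at late stages can show.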

Other observations

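Clusters with glial markers that were given no name carried SoxB and SoxE genes too. At E14.5 the cluster led by *Npy* and *Akr1b8* (43 and 44 cells) held *Sox2* at 88.7 and 179 CPM and *Sox9* at 57.9 and 77.3 CPM, with glial markers at 4938 and 5954 CPM. At E15.5 the cluster led by *Npr3*, *Npy*, *Ahr* and *Sox2* (11 and 15 cells) held *Sox2* at 493 and 264 CPM, above every glia-like plate, and *Sox9* at 56.5 and 18.2 CPM, and the one led by *Col20a1* and *Deptor* (15 and 18 cells) held *Sox2* at 116 and 190 CPM. No *Sox2* read was counted in the 3 and 2 cells led by *Acta2* and *Myog*, muscle genes, at E14.5. These few cells held *Sox8* at 267 and 32.5 CPM, the first above every OM-like plate, and *Sox9* at 122 and 51.3 CPM.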
